A study of Homo sapiens with 9 samples.

Results

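The genes described here are the human Wnt ligands, their receptors and co-receptors, the secreted antagonists, the enzymes of ligand export and a set of cytoplasmic and nuclear components, 1 of which (AXIN2) is also a widely used readout of the pathway. They were taken by gene symbol and protein-coding biotype. The rule uses no measured value, though it was written with earlier results of these data known. The rule found 62 entries with 59 symbols among the 64253 genes of the count table, because WNT3 has 3 entries and WNT9B has 2. RNA was sequenced from EPC2, an esophageal epithelial cell line that the labels call normal and squamous. The libraries fall into 3 groups of 3. In the group called Fox the cells received a FOXF1 plasmid with Lipofectamine 2000, a lipid that carries DNA into cells. In the group called Lipo they received the empty vector with the same lipid, and in the group called Ctrl they were untreated. All groups share the line and its medium, though the labels name 2 media, serum-free keratinocyte medium with pituitary extract and epidermal growth factor, and BEBM. FOXF1 encodes a forkhead transcription factor that is known from the mesenchyme of the gut and lung. The labels give neither the time from transfection to harvest nor the share of cells that took up DNA.

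Wnt proteins are lipid-modified by PORCN and carried to the cell surface by WLS. At the receiving cell they bind a Frizzled receptor together with LRP5 or LRP6, which disables a complex of AXIN1, APC and kinases that otherwise marks β-catenin for destruction. β-catenin then joins the TCF and LEF factors on DNA. Other ligands, WNT5A, WNT5B and WNT11 among them, act mostly without β-catenin, through Frizzled proteins and the receptors ROR1, ROR2 and RYK, and shape cell polarity and movement. In the developing foregut, Wnt signals from the mesenchyme help to set the identity of the epithelium, and secreted antagonists of the SFRP and DKK families restrict them.

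Library totals were 34390666 to 39973289 reads. FOXF1 had 367, 184 and 141 reads in Fox libraries, against 0, 0 and 6 in Lipo libraries and 1, 0 and 0 in Ctrl libraries, so the labels and the plasmid match. Reads of the protein-coding mitochondrial genes made up 13.5 ± 0.546% of the total in Fox, 10.6 ± 0.726% in Lipo and 20.1 ± 1.93% in Ctrl libraries (SD, n = 3 each). Of 12 squamous markers, 9 were below 1 CPM (counts scaled by library size) in every library, and TP63, SOX2 and SPRR3, which help to define the labelled cell type, had no read. PAX9 (mean 16.7 CPM), TGM1 (1.95) and KRT6A (1.21) were the ones that exceeded that level. The squamous markers summed to 18.4 to 20.5 CPM in Fox, 20.4 to 23.0 in Lipo and 18.4 to 20.1 in Ctrl libraries. Markers of simple columnar epithelium, mainly KRT7, KRT8 and KRT18, summed to 3950 to 4210 CPM in Fox, 3450 to 3870 in Lipo and 4060 to 4690 in Ctrl libraries, with 7 of 13 entries below 1 CPM throughout. Fibroblast markers summed to 3220 to 3580 CPM in Fox, 2950 to 3140 in Lipo and 2940 to 3170 in Ctrl libraries. COL1A1, THY1 and VIM carried nearly all of that sum, 6 of the 10 were below 1 CPM throughout, and COL1A2 had no read. All 4 endothelial markers and 4 of 5 leukocyte entries, which include an extra entry of PTPRC, were below 1 CPM in every library. The leukocyte marker above that level was CD14, at a mean of 10 CPM. The part of these shares and sums in the results that follow was not tested.

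Of the 62 entries, 45 had enough reads to be tested, 15 of them at a mean of 10 CPM or more, 19 between 1 and 10 CPM and 11 below 1 CPM. CPM values are on library sizes scaled by TMM, a factor that corrects for differences in RNA composition. The other 17 were not tested. No read was found for DKK4, WNT16, WNT2 and RSPO3, and 0 reads in all 9 libraries pooled allow a level of up to 0.00871 CPM. The 2 extra entries of WNT3 and the extra entry of WNT9B also had no read. They have no position in the annotation used for exon lengths. Whether any read could be assigned to them is not known, so no limit is given for them. LEF1 had 43 reads in all and ZNRF3 had 76. DKK2, SFRP4, WNT9B, WNT1, WNT7A, WNT8A, RSPO1 and LGR5 had between 1 and 9 reads in all 9 libraries together. A single library allows a level of up to 0.0751 to 0.0872 CPM for a gene without a read (3 reads of its total). Such limits cover counting error only.

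**Figure D1:**
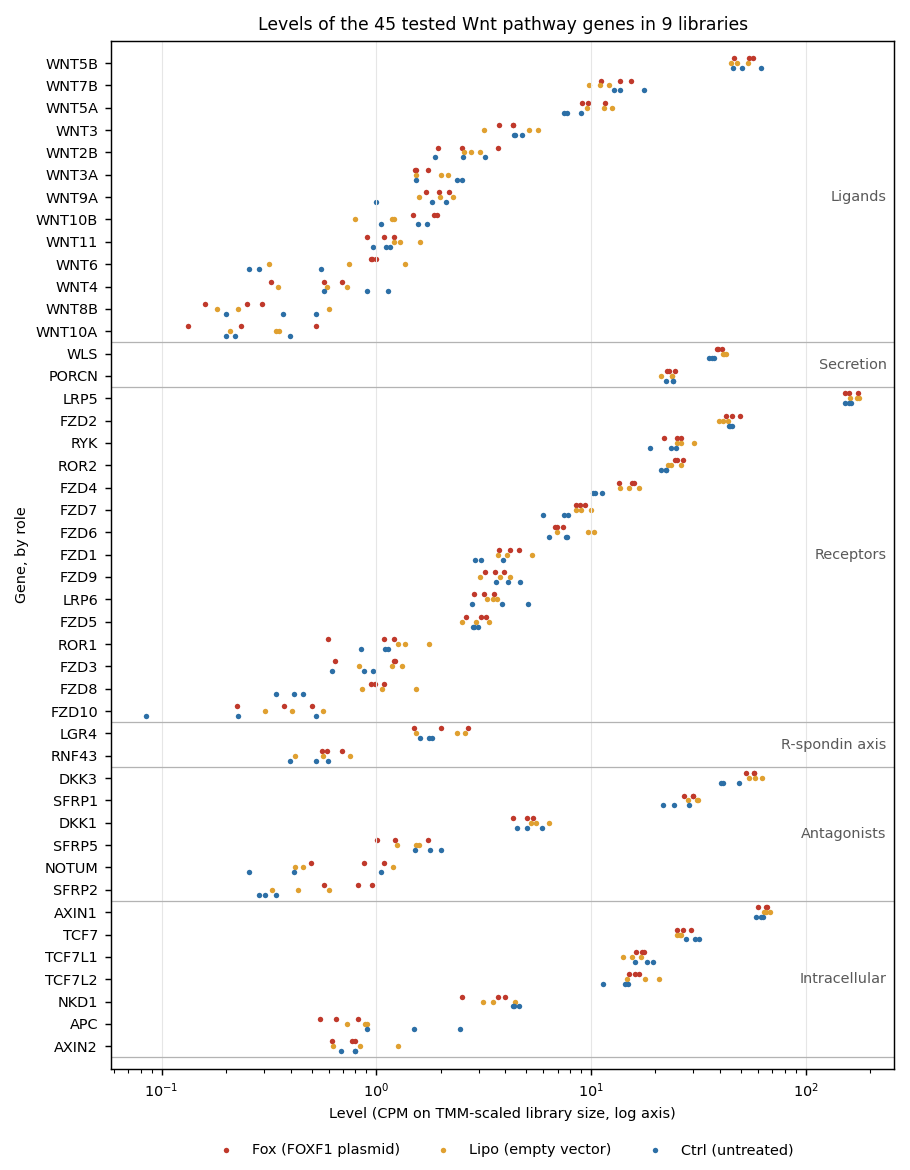
Level of each of the 45 tested genes in each of the 9 libraries, as CPM on TMM-scaled library sizes on a log axis, with genes grouped by role and colours for Fox, Lipo and Ctrl libraries. LRP5 lies highest, between 152 and 177 CPM, and for most genes the 3 colours overlap.

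Between Fox and Lipo cells, which by their labels differ only in the plasmid, no gene of the 45 passed the test at an adjusted p below 0.05 (edgeR quasi-likelihood test), where 9 of all 16366 genes tested (0.055%) did. limma-voom and DESeq2 without independent filtering also called 0, where 13 and 20 of all genes passed, in that order. At an unadjusted p below 0.05 there were 3 of 45, against 9.43% of all genes: WNT7B and WNT10B on the higher side and FZD6 on the lower. The fold changes were negative for 32 genes and positive for 13 (28.9%, against 46.6% of all genes). Their median log2 fold change was -0.07, where all genes had a median of -0.01. Libraries of the groups did not overlap for 4 genes (8.89%, against 13% of all genes), with WNT10B higher in Fox and WNT11, ROR1 and WLS lower.

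Lipo cells differed from Ctrl cells in 7 of the 45 genes (15.6%), where 19.6% of all genes passed. DKK3, SFRP1, TCF7L2, WNT5A, FZD4 and FZD8 were higher in Lipo (6 of 45, against 10.2% of all genes) and WNT7B was lower (1 of 45, against 9.37%). The share of all members called lies below that of all genes. The median log2 fold change of the 45 was 0.15, against 0.04 for all genes, and 30 of them were positive (66.7%, against 55.6% of all genes). Lipo and Ctrl libraries did not overlap for 15 genes (33.3%, against 32.6% of all genes). In Fox over Ctrl, 4 of 45 passed (8.89%, against 8.52% of all genes). DKK3, FZD4 and FZD8 were higher in Fox (against 4.63% of all genes), and APC was lower (against 3.89%). The median was 0.06, against 0.02 for all genes, and 13 genes did not overlap (28.9%, against 26.6%). Lipo over Ctrl and Fox over Ctrl share the Ctrl libraries, and Fox over Lipo shares a group with each, so the comparisons are not independent of one another.

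The choice of scale bears on these counts. Scaling by library totals alone, with no composition factor, moved the median over all genes by 0.25 (log2) in Lipo over Ctrl, by 0.15 in Fox over Ctrl and by -0.10 in Fox over Lipo. On that scale, 94.4% of all calls in Lipo over Ctrl were higher in Lipo, against 52.2% on the TMM scale, and 92.8% of those in Fox over Ctrl were higher in Fox, against 54.3%. Members called in Lipo over Ctrl were then 15 higher and 0 lower, in place of 6 and 1. All genes called were then 5721 higher and 338 lower, in place of 1676 and 1533. The reads of all 62 entries together came to 692.7 ± 17.9 CPM of the library total in Fox, 755.6 ± 22.6 in Lipo and 592.1 ± 29.8 in Ctrl libraries (SD, n = 3 each). These sums carry no TMM factor, and their totals include the mitochondrial reads. The TMM factors were 0.9886 to 1.029 in Fox, 1.045 to 1.12 in Lipo and 0.8803 to 0.9505 in Ctrl libraries. On the TMM scale the sums of the groups would therefore lie nearer one another. With the mitochondrial genes removed before scaling, the counts of members called were again 0, 7 and 4 in the 3 comparisons. In bulk RNA, fewer cells that express a gene and less of its RNA per cell cannot be told apart.

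**Figure D2:**
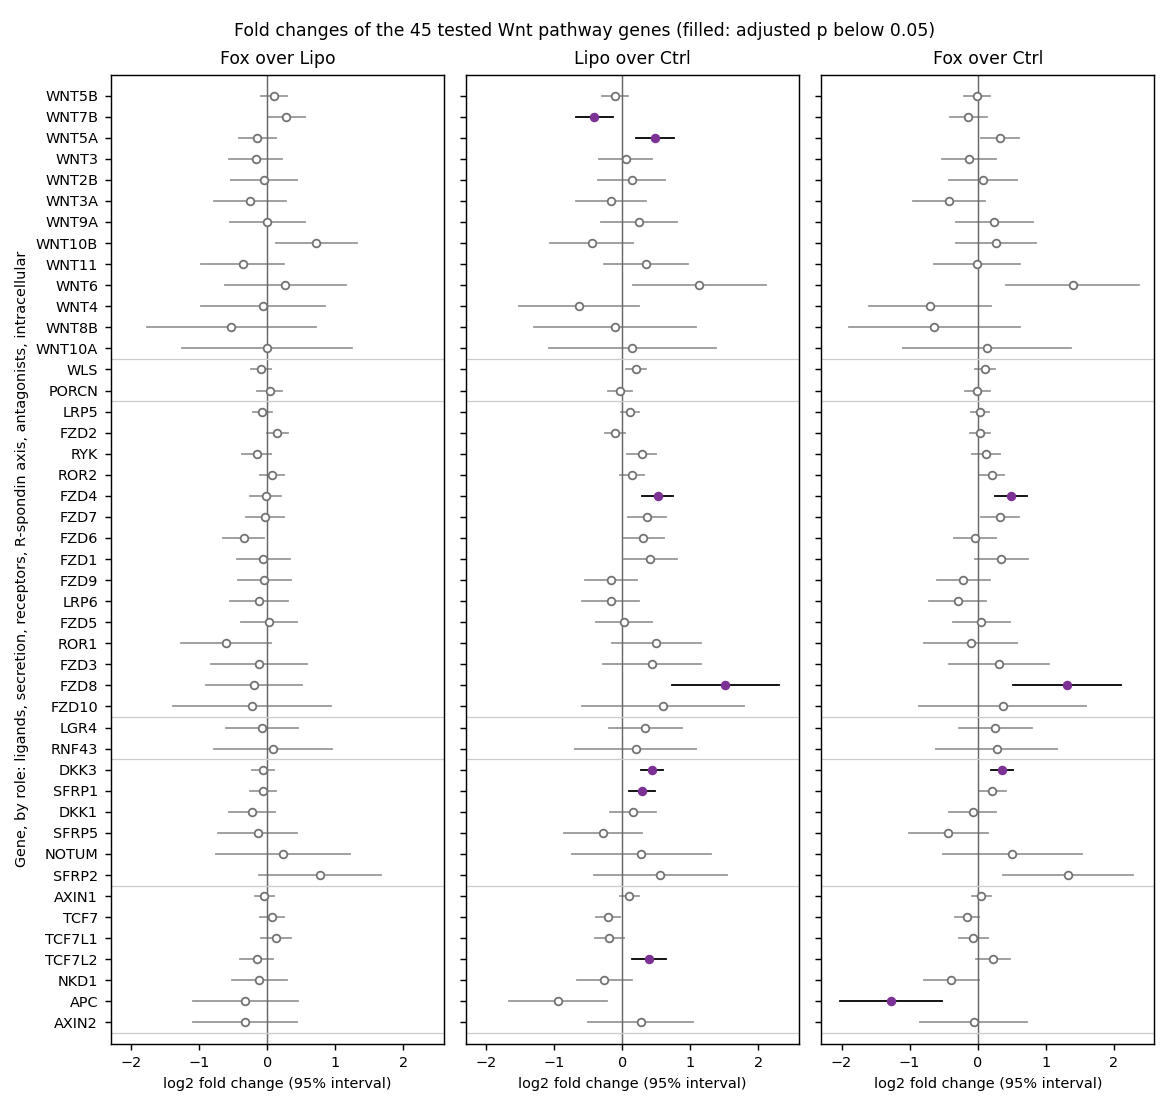
log2 fold change of each tested gene with its 95% interval in Fox over Lipo, Lipo over Ctrl and Fox over Ctrl, ordered by role. Filled points passed at an adjusted p below 0.05: 0 in Fox over Lipo, 7 in Lipo over Ctrl and 4 in Fox over Ctrl.

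Among the ligands, the transcripts came mainly from WNT5B, the close paralog of WNT5A. Per length of the exons, WNT5B averaged 12 RPKM (reads scaled by exon length and library size), against 2.58 RPKM for WNT7B, 1.33 for WNT5A and 1.03 for WNT3 (means of 9 libraries). The libraries of WNT5B, WNT7B and WNT5A did not overlap one another on this scale, and those of WNT5A and WNT3 did. From WNT3 down, through WNT3A, WNT10B, WNT11, WNT9A, WNT6, WNT2B, WNT8B, WNT4 and WNT10A, each gene overlapped its neighbour in the order. WNT5B made up 57.4 to 62.5% of all ligand reads per length in each of the 9 libraries, WNT7B 10.3 to 15.2% and WNT5A 5.31 to 9.0%. WNT3 and WNT3A, which act through β-catenin, held 3.88 to 6.54% and 2.40 to 4.17%.

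The 250 bases before the first RefSeq start of WNT5B (chr12:1616806-1617055, plus strand) and of WNT5A (chr3:55487307-55487556, minus strand) are given on GRCh38.p14 to set the paralogs side by side. Start sequences of this length were searched on both strands for CTTTGA, the core that TCF and LEF factors read, and for TAAACA, a core that forkhead factors read, with capitals for a match. Their reverse complements are TCAAAG and TGTTTA, and no match shown overlaps another.
WNT5B: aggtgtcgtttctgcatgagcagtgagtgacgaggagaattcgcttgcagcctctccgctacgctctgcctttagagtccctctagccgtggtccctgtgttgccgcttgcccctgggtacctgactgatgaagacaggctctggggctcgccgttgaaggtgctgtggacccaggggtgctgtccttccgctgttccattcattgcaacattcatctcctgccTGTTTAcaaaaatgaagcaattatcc
WNT5A: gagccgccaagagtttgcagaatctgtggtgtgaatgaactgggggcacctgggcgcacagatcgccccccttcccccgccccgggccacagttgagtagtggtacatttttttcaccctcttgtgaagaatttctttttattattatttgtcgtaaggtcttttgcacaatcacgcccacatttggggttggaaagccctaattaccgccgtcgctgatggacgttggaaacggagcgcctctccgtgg
WNT5B holds 1 forkhead core, 26 bases before that start, and WNT5A holds neither motif. RefSeq lists 2 starts for each gene in the table used, and this is the first. TAAACA lies in 11.1% of the 27305 genes' start sequences and in 5 of the 41 members found there (12.2%: LEF1, SFRP2, TCF7, TCF7L2 and WNT5B). CTTTGA lies in 11.4% of them and in 1 of 41 members (2.44%), DKK1. A match describes the letters and is not a binding site.

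WNT5B (ENSG00000111186, chromosome 12, 1529891 to 1647243, plus strand, GRCh38) stood at 54.8, 56.8 and 46.4 CPM in Fox, 54.1, 45.1 and 47.9 CPM in Lipo and 61.8, 45.7 and 50.6 CPM in Ctrl libraries. The groups overlapped fully, and the log2 fold change in Fox over Lipo was 0.10 with a 95% interval of -0.09 to 0.29. WNT5A (ENSG00000114251, chromosome 3, 55465715 to 55490539, minus strand) stood at 11.6, 9.09 and 9.73 CPM in Fox, 9.61, 11.5 and 12.6 CPM in Lipo and 9.01, 7.52 and 7.71 CPM in Ctrl libraries. Every library of either transfected group lay above every Ctrl library. WNT5A was 1.39-fold higher in Lipo than in Ctrl cells (log2 0.48 ± 0.14 SE, adjusted p = 0.0119), and its log2 fold change in Fox over Ctrl was 0.33 (adjusted p = 0.143). Without Lipo 2, Lipo 3 or Ctrl 2 in turn, the adjusted p in Lipo over Ctrl was 0.0503, 0.0786 and 0.062. Within a library, the per-length ratio of WNT5B to WNT5A was 9.01 ± 1.5 in Fox, 7.64 ± 1.8 in Lipo and 11.2 ± 0.67 in Ctrl (SD, n = 3 each). Lipo and Ctrl libraries did not overlap in this ratio.

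WNT7B, a ligand of lung and kidney development, was the ligand that fell in Lipo. WNT7B (ENSG00000188064, chromosome 22, 45920362 to 45977129, minus strand) stood at 13.7, 15.4 and 11.1 CPM in Fox, 12.2, 11 and 9.81 CPM in Lipo and 17.6, 12.8 and 13.6 CPM in Ctrl libraries. All Lipo libraries lay below all Ctrl libraries, while Fox libraries overlapped both. The log2 fold change was -0.42 ± 0.13 (SE) in Lipo over Ctrl (adjusted p = 0.0248), 0.28 ± 0.13 in Fox over Lipo (unadjusted p = 0.0427, adjusted p = 0.52) and -0.14 in Fox over Ctrl (adjusted p = 0.608). Scaled by library totals alone, the WNT7B value in Lipo over Ctrl was -0.17 with an adjusted p of 0.344. The call was also lost without Lipo 2, Lipo 3 or Ctrl 1 in turn (adjusted p = 0.0736, 0.123 and 0.207).

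The remaining ligands were scarce. WNT3 averaged 4.15 ± 0.35 CPM in Fox, 4.68 ± 1.3 in Lipo and 4.53 ± 0.22 in Ctrl libraries (SD, n = 3 each). WNT10B, a ligand that acts through β-catenin, stood at 1.91, 1.85 and 1.49 CPM in Fox, 1.19, 0.794 and 1.21 CPM in Lipo and 1.73, 1.57 and 1.05 CPM in Ctrl libraries. All Fox libraries lay above all Lipo libraries, and Ctrl overlapped both. Its log2 fold change in Fox over Lipo was 0.72 ± 0.29 (SE), with an unadjusted p of 0.0195 and an adjusted p of 0.451. WNT6 stood at 0.994, 0.942 and 0.96 CPM in Fox, 1.36, 0.318 and 0.744 CPM in Lipo and 0.256, 0.551 and 0.284 CPM in Ctrl libraries. Fox libraries lay above all Ctrl libraries, with a log2 fold change of 1.40 ± 0.48 (SE) that missed the threshold (adjusted p = 0.0661), and Lipo libraries spanned both. For WNT2B, WNT3A, WNT9A, WNT11, WNT4, WNT8B and WNT10A the adjusted p was above 0.3 in each comparison, with log2 fold changes between -0.70 and 0.35.

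**Figure D3:**
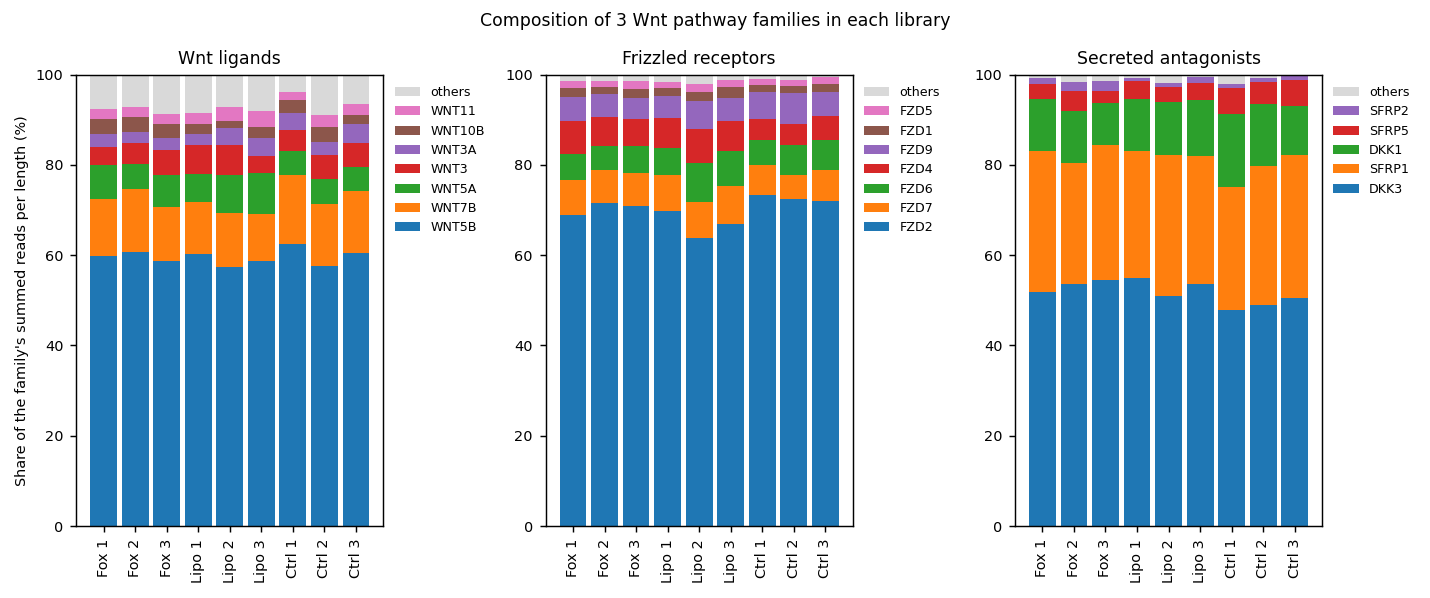
Share of each gene in the summed reads per exon length of its family, for the Wnt ligands, the Frizzled receptors and the secreted antagonists, in each Fox, Lipo and Ctrl library. WNT5B holds 57.4 to 62.5% of the ligands, FZD2 63.8 to 73.4% of the Frizzleds and DKK3 47.9 to 54.9% of the antagonists.

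The machinery of ligand export was present at similar levels throughout. WLS, the carrier of Wnt proteins, stood at 38.6, 40.7 and 39.0 CPM in Fox, 41.8, 41.1 and 42.5 CPM in Lipo and 37.3, 36.6 and 35.6 CPM in Ctrl libraries. The groups were ordered with no overlap, Lipo highest and Ctrl lowest, yet the steps were small: the log2 fold change was 0.20 ± 0.07 (SE) in Lipo over Ctrl (adjusted p = 0.0542) and -0.09 in Fox over Lipo (adjusted p = 0.757). PORCN, the acyltransferase that lipidates Wnt proteins, stood at 23.2, 22.7 and 24.7 CPM in Fox, 24.0, 21.2 and 23.8 CPM in Lipo and 24.2, 24.2 and 22.4 CPM in Ctrl libraries. These overlapped in every comparison, and the 95% interval of its log2 fold change in Fox over Lipo was -0.15 to 0.22.

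The receptors were led by 1 co-receptor and 1 Frizzled. LRP5 averaged 26.5 RPKM over the 9 libraries and LRP6, the other co-receptor that binds Wnt with Frizzled, 0.341 RPKM. Within a library, LRP5 exceeded LRP6 by 52.4 to 97.6 times per length. Among the Frizzleds FZD2 averaged 20.8 RPKM, apart from all others, and FZD7 (2.18), FZD6 (1.91), FZD4 (1.84) and FZD9 (1.62 RPKM) followed with overlapping libraries. FZD1, FZD5, FZD8, FZD10 and FZD3 ran from 0.566 down to 0.0716 RPKM. FZD2 made up 63.8 to 73.4% of Frizzled reads per length. Such ratios and shares, here and in the other families, rest on the exon lengths used, and the annotation release of the counting is not given. The part of GC content, 62.4% for LRP5 and 42.6% for LRP6, was not tested. Of the receptors for signals without β-catenin, ROR2 averaged 25.6 ± 1.1 CPM in Fox, 24.3 ± 1.9 in Lipo and 22 ± 0.75 CPM in Ctrl libraries (SD, n = 3 each), with both transfected groups above Ctrl and an adjusted p of 0.286 in Lipo over Ctrl. All 15 receptor genes were tested. Of these, 0 passed in Fox over Lipo, 2 in Lipo over Ctrl (13.3%, against 19.6% of all genes) and 2 in Fox over Ctrl (13.3%, against 8.52%), FZD4 and FZD8 each time. In Lipo over Ctrl 12 of the 15 had positive fold changes (80%, against 55.6% of all genes) and 6 lay above Ctrl with no overlap (17.4% of all genes did: RYK, ROR2, FZD4, FZD7, ROR1 and FZD8).

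LRP5 stood at 159, 175 and 152 CPM in Fox, 177, 174 and 161 CPM in Lipo and 153, 159 and 162 CPM in Ctrl libraries. The groups overlapped, and the 95% interval of the log2 fold change in Fox over Lipo was -0.20 to 0.06. FZD2 stood at 42.5, 49.5 and 45.5 CPM in Fox, 41.1, 39.7 and 43.5 CPM in Lipo and 45.5, 44.6 and 44.0 CPM in Ctrl libraries. Lipo libraries lay just below Ctrl libraries, and Fox libraries spanned both, with an adjusted p of 0.333 in Lipo over Ctrl and 0.556 in Fox over Lipo. RYK, an atypical receptor kinase for Wnt, stood at 26.3, 21.8 and 25.1 CPM in Fox, 25.1, 26.3 and 30.2 CPM in Lipo and 18.8, 24.8 and 23.6 CPM in Ctrl libraries. Lipo lay above Ctrl without overlap, but the log2 fold change of 0.28 ± 0.10 (SE) missed the threshold (adjusted p = 0.0518).

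FZD4, which also binds the retinal vessel factor norrin, and FZD8 were the Frizzleds that rose with transfection. Their start sequences are given for that reason: the 250 bases before the RefSeq start on GRCh38.p14, FZD4 at chr11:86955396-86955645 and FZD8 at chr10:35642297-35642546, both on the minus strand.
FZD4: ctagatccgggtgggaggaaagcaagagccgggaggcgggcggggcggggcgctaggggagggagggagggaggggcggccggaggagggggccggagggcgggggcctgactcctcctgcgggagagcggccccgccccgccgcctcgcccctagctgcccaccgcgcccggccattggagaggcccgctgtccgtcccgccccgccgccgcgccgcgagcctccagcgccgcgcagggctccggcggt
FZD8: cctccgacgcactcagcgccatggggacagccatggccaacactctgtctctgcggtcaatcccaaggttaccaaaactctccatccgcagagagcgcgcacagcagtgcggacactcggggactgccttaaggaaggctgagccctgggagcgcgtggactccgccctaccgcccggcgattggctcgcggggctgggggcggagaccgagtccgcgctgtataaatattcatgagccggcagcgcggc
Neither holds the TCF/LEF core or the forkhead core, so no letter is in capitals.

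FZD4 (ENSG00000174804, chromosome 11, 86945679 to 86955391, minus strand) stood at 15.8, 15.5 and 13.5 CPM in Fox, 13.7, 16.7 and 15.1 CPM in Lipo and 10.4, 10.2 and 11.3 CPM in Ctrl libraries. Every Fox and Lipo library lay above every Ctrl library, and Fox and Lipo overlapped. FZD4 was 1.43-fold higher in Lipo than in Ctrl (log2 0.52 ± 0.11 SE, adjusted p = 0.00133) and 1.41-fold higher in Fox than in Ctrl (log2 0.49 ± 0.11 SE, adjusted p = 0.0049). Fox over Lipo gave -0.02 with a 95% interval of -0.25 to 0.21. Both calls held in all leave-one-out fits and all 11 other settings. The exons of FZD4 share 1399 bases with PRSS23 on the other strand. The strand setting of the counting is not given in the sources used here, and PRSS23 had a log2 fold change of -0.04 in Lipo over Ctrl (adjusted p = 0.739) and -0.10 in Fox over Ctrl (adjusted p = 0.436). Whether reads of PRSS23 enter the FZD4 counts was not tested. Within a library, the per-length ratio of FZD2 to FZD4 was 10.8 ± 1.2 in Fox, 9.62 ± 1.1 in Lipo and 14.8 ± 0.95 in Ctrl (SD, n = 3 each), with no overlap between Ctrl and either transfected group.

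FZD8 (ENSG00000177283, chromosome 10, 35638249 to 35642278, minus strand) was scarce and had the largest fold change among the genes called. It stood at 1.09, 0.942 and 0.987 CPM in Fox, 1.06, 1.54 and 0.86 CPM in Lipo and 0.455, 0.413 and 0.34 CPM in Ctrl libraries. These are 44, 32 and 37 reads in Fox, 42, 68 and 37 in Lipo and 16, 15 and 12 in Ctrl libraries. No Ctrl library reached the lowest transfected one. FZD8 was 2.85-fold higher in Lipo than in Ctrl (log2 1.51 ± 0.38 SE, adjusted p = 0.00489) and 2.49-fold higher in Fox than in Ctrl (log2 1.32 ± 0.39 SE, adjusted p = 0.0301). Without Lipo 2 the first was 1.24 with an adjusted p of 0.0596. The second lost its call in each of the 6 fits that left out a library (adjusted p = 0.0583 to 0.0876), with a log2 fold change of 1.20 to 1.40, and with limma-voom (1.30, adjusted p = 0.057).

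The other 8 Frizzleds, the co-receptors and the receptor kinases did not pass in any comparison. FZD7 averaged 8.95 ± 0.45 CPM in Fox, 9.18 ± 0.79 in Lipo and 7.13 ± 0.99 in Ctrl libraries (SD, n = 3 each), with both transfected groups above Ctrl without overlap and an adjusted p of 0.0601 in Lipo over Ctrl. FZD6, a Frizzled of planar polarity, stood at 6.79, 6.97 and 7.41 CPM in Fox, 6.94, 10.3 and 9.67 CPM in Lipo and 6.37, 7.69 and 7.71 CPM in Ctrl libraries. The lowest Lipo library lay among the Fox and Ctrl libraries. Its log2 fold change in Fox over Lipo was -0.35 ± 0.15 (SE), with an unadjusted p of 0.0268 and an adjusted p of 0.48. ROR1 stood at 0.597, 1.21 and 1.09 CPM in Fox, 1.77, 1.36 and 1.26 CPM in Lipo and 1.14, 1.10 and 0.851 CPM in Ctrl libraries. Lipo lay above both other groups without overlap, with a log2 fold change of -0.60 ± 0.32 (SE) in Fox over Lipo (adjusted p = 0.57) and 0.50 in Lipo over Ctrl (adjusted p = 0.302). FZD1 averaged 4.18 ± 0.45 CPM in Fox, 4.36 ± 0.84 in Lipo and 3.28 ± 0.53 in Ctrl libraries (SD, n = 3 each), with an adjusted p of 0.139 in Lipo over Ctrl. For FZD9, LRP6, FZD5, FZD3 and FZD10 the adjusted p was above 0.4 in every comparison, with log2 fold changes from -0.29 to 0.60.

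The R-spondin axis raises Wnt receptor levels: R-spondins bind LGR receptors and draw off RNF43 and ZNRF3, ligases that remove Frizzleds from the surface. Of its 6 members here, LGR4 and RNF43 were tested and neither passed in any comparison. LGR4 stood at 2.68, 1.5 and 2 CPM in Fox, 1.54, 2.38 and 2.6 CPM in Lipo and 1.76, 1.60 and 1.81 CPM in Ctrl libraries. RNF43 stood at 0.696, 0.589 and 0.56 CPM in Fox, 0.757, 0.567 and 0.419 CPM in Lipo and 0.597, 0.524 and 0.397 CPM in Ctrl libraries. Both overlapped between all groups. The exons of RNF43 share 4326 bases with AC004687.2 and 143 with SUPT4H1 on the same strand. Whether reads in those bases are missing from the RNF43 counts was not tested. ZNRF3 had 2 to 19 reads per library. LGR5, a marker of intestinal stem cells, had 2 reads in all, RSPO1 had 9 and RSPO3 had none. The R-spondins RSPO2 and RSPO4 lie outside the rule. RSPO4 was abundant, at 31.5 ± 1.6 CPM in Fox, 27.6 ± 3.4 in Lipo and 34.2 ± 1.2 in Ctrl libraries (SD, n = 3 each). Per exon length that was 11.5 RPKM over the 9 libraries, while RSPO2 had 15 reads in all.

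Of the secreted antagonists, DKK3 was the most abundant and the most stable in its calls. DKK3 averaged 10.4 RPKM over the 9 libraries, SFRP1 5.89, DKK1 2.39 and SFRP5 0.826 RPKM, each apart from the next. SFRP2 and NOTUM were lower and overlapped. DKK3 made up 47.9 to 54.9% of antagonist reads per length. DKK3 is the most divergent member of its family and is not a clear Wnt antagonist in all settings. DKK3 (ENSG00000050165, chromosome 11, 11963106 to 12009769, minus strand) stood at 52.6, 57.5 and 57.7 CPM in Fox, 58.4, 54.5 and 62.7 CPM in Lipo and 40.4, 41.1 and 48.9 CPM in Ctrl libraries. Every transfected library lay above every Ctrl library. DKK3 was 1.35-fold higher in Lipo than in Ctrl (log2 0.43 ± 0.08 SE, adjusted p = 0.000206) and 1.29-fold higher in Fox than in Ctrl (log2 0.36 ± 0.08 SE, adjusted p = 0.00309). Both calls held in all leave-one-out fits and all 11 other settings. Its log2 fold change in Fox over Lipo was -0.07 (95% interval -0.23 to 0.10).

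SFRP1 (ENSG00000104332), which binds Wnt proteins outside the cell, stood at 29.9, 27.2 and 29.8 CPM in Fox, 28.2, 31.4 and 31.3 CPM in Lipo and 21.6, 24.4 and 28.7 CPM in Ctrl libraries. The highest Ctrl library overlapped both other groups. SFRP1 was 1.22-fold higher in Lipo than in Ctrl (log2 0.29 ± 0.09 SE, adjusted p = 0.0296), and Fox over Ctrl gave 0.22 (adjusted p = 0.158). The call in Lipo over Ctrl was lost without Lipo 2, Lipo 3, Ctrl 1 or Ctrl 2 in turn (adjusted p = 0.122, 0.0927, 0.248 and 0.101), and with DESeq2 without independent filtering (0.0542). SFRP2, of the same family, stood at 0.572, 0.824 and 0.96 CPM in Fox, 0.328, 0.431 and 0.605 CPM in Lipo and 0.284, 0.303 and 0.34 CPM in Ctrl libraries. Fox lay above Ctrl without overlap, with a log2 fold change of 1.33 ± 0.47 (SE) and an adjusted p of 0.0726. SFRP5 averaged 1.32 ± 0.37 CPM in Fox, 1.46 ± 0.18 in Lipo and 1.77 ± 0.25 in Ctrl libraries. NOTUM, the enzyme that strips the lipid from Wnt proteins, averaged 0.822 ± 0.3 CPM in Fox, 0.692 ± 0.44 in Lipo and 0.574 ± 0.42 in Ctrl libraries (SD, n = 3 each). Neither passed in any comparison.

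DKK1, the antagonist that binds LRP6, is itself a known target of β-catenin and was the single member with a TCF/LEF core in its start sequence. The 250 bases before the RefSeq start (chr10:52314031-52314280, plus strand, GRCh38.p14) hold 2 matches, in capitals, at 95 and 149 bases before the start.
DKK1: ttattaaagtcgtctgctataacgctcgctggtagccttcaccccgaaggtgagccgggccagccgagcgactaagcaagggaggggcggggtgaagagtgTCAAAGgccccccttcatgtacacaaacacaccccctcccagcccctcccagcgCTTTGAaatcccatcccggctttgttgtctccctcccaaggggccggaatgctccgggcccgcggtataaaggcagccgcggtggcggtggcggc
DKK1 stood at 5.05, 5.36 and 4.32 CPM in Fox, 5.27, 5.54 and 6.39 CPM in Lipo and 5.91, 5.02 and 4.54 CPM in Ctrl libraries. The groups overlapped, and the log2 fold change was -0.23 in Fox over Lipo (95% interval -0.56 to 0.11), 0.15 in Lipo over Ctrl (-0.18 to 0.49) and -0.07 in Fox over Ctrl (-0.41 to 0.27).

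**Figure D4:**
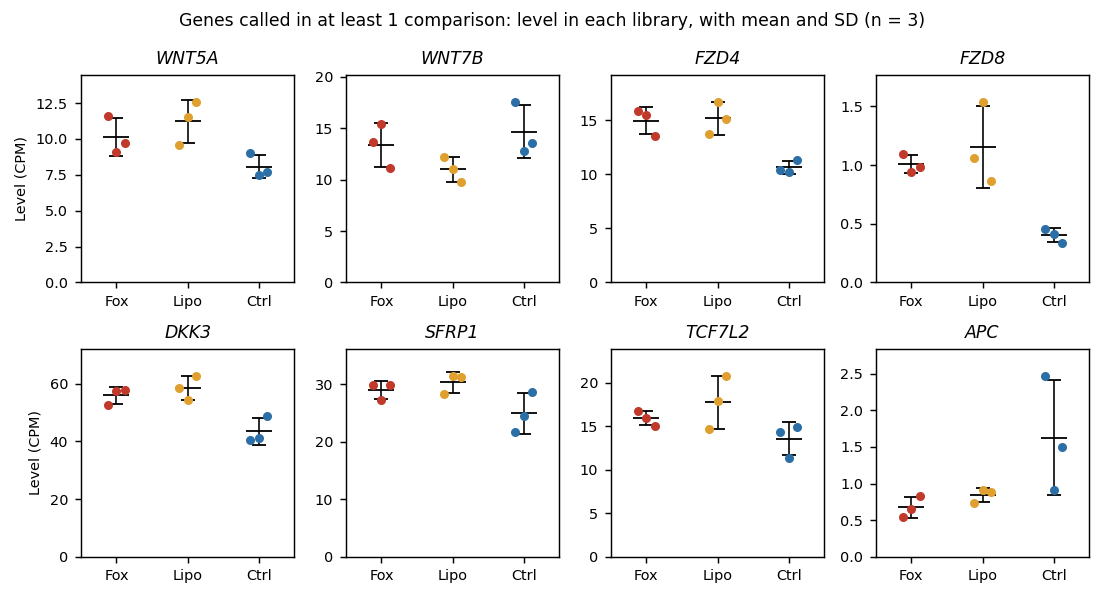
Level in each library, with mean and SD (n = 3), of the 8 genes that passed in at least 1 comparison, for Fox, Lipo and Ctrl on linear axes that start at 0. DKK3, FZD4, FZD8 and WNT5A lie higher in all Fox and Lipo libraries than in all Ctrl libraries, and APC is spread widest in Ctrl.

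Inside the cell, the TCF family was represented by TCF7L1 (3.82 RPKM over the 9 libraries), TCF7 (2.75) and TCF7L2 (2.34 RPKM), with LEF1 at 0.0227 RPKM. TCF7L1 acts mostly as a repressor, and TCF7L2 is the main partner of β-catenin in gut epithelium. AXIN1, the scaffold of the destruction complex, stood at 66.2, 65.1 and 60.0 CPM in Fox, 68.1, 63.8 and 65.5 CPM in Lipo and 62.2, 58.5 and 63.6 CPM in Ctrl libraries. The highest Ctrl library lay just under the lowest Lipo library, and the adjusted p was 0.345 in Lipo over Ctrl and 0.892 in Fox over Lipo. TCF7 stood at 25.2, 29.4 and 26.8 CPM in Fox, 26.0, 25.3 and 26.4 CPM in Lipo and 32.0, 27.6 and 30.7 CPM in Ctrl libraries. Lipo lay below Ctrl without overlap (log2 -0.22, adjusted p = 0.0777). TCF7 shares 210 bases of exon with SKP1 on the other strand, and SKP1 was lower in Lipo than in Ctrl (log2 -0.33, adjusted p = 0.00179). Whether reads of SKP1 enter the TCF7 counts was not tested. TCF7L1 stood at 17.3, 17.7 and 16.2 CPM in Fox, 15.6, 14.1 and 17.1 CPM in Lipo and 16, 18.2 and 19.4 CPM in Ctrl libraries, with overlap and an adjusted p of 0.213 in Lipo over Ctrl.

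TCF7L2 and APC were the intracellular genes that passed a test, in different comparisons. The 250 bases before the first listed RefSeq start on GRCh38.p14 are given for TCF7L2 (chr10:112949997-112950246, plus strand) and APC (chr5:112707248-112707497, plus strand), with the same 2 motifs in capitals.
TCF7L2: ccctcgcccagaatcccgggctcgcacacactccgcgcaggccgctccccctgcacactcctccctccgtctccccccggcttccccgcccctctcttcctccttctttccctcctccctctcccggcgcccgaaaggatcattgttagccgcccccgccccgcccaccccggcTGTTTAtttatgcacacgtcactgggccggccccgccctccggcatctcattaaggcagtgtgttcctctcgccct
APC: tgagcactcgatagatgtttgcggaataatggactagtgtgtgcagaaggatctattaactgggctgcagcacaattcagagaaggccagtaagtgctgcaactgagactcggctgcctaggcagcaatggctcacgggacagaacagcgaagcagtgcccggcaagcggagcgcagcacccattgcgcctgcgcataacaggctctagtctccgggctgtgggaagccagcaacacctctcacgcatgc
TCF7L2 holds 1 forkhead core, 76 bases before the start, and APC holds neither motif.

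TCF7L2 (ENSG00000148737, chromosome 10, 112950250 to 113167678, plus strand) stood at 16.8, 16 and 15.1 CPM in Fox, 14.7, 17.9 and 20.8 CPM in Lipo and 14.4, 11.4 and 14.9 CPM in Ctrl libraries. Lipo overlapped Ctrl at its lowest library, and Fox lay above Ctrl without overlap. TCF7L2 was 1.31-fold higher in Lipo than in Ctrl (log2 0.39 ± 0.12 SE, adjusted p = 0.0217), while Fox over Ctrl gave 0.23 (adjusted p = 0.265) and Fox over Lipo -0.16 (adjusted p = 0.733). The call was lost without Lipo 2, Lipo 3 or Ctrl 2 in turn (adjusted p = 0.0684, 0.186 and 0.166). APC, whose loss starts most colorectal tumours, was scarce in every group. APC (ENSG00000134982, chromosome 5, 112707498 to 112846239, plus strand) stood at 0.547, 0.647 and 0.827 CPM in Fox, 0.732, 0.908 and 0.884 CPM in Lipo and 2.47, 0.91 and 1.5 CPM in Ctrl libraries. Those are 22, 22 and 31 reads in Fox, 29, 40 and 38 in Lipo and 87, 33 and 53 in Ctrl libraries. The first Ctrl library was the highest by far, and the highest Lipo library, at 0.908 CPM, came close to the second Ctrl library, at 0.91 CPM. APC was lower in Fox than in Ctrl, at 0.415 times its level (log2 -1.27 ± 0.37 SE, adjusted p = 0.0255), and Lipo over Ctrl gave -0.95 ± 0.35 (adjusted p = 0.0581). Without Ctrl 1 the value in Fox over Ctrl was -0.85 with an adjusted p of 0.27. It also missed the threshold without Fox 1 (0.1), without Fox 2 (0.0717) and with limma-voom (0.0639).

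The feedback genes of the pathway did not pass in any comparison. AXIN2, which β-catenin induces in most tissues, stood at 0.621, 0.794 and 0.773 CPM in Fox, 0.631, 1.27 and 0.837 CPM in Lipo and 0.796, 0.689 and 0.794 CPM in Ctrl libraries. AXIN2 overlapped between all groups, and its log2 fold change in Fox over Lipo was -0.33 with a 95% interval of -1.10 to 0.44. That interval is too wide to tell a change of 2-fold in the lower direction from none. The exons of AXIN2 share 1316 bases with AC004805.1 on the same strand, a gene without a read here. Whether reads in those bases are missing from the AXIN2 counts was not tested. NKD1, an inhibitor that binds Dishevelled, averaged 3.40 ± 0.79 CPM in Fox, 3.69 ± 0.68 in Lipo and 4.44 ± 0.17 in Ctrl libraries (SD, n = 3 each), with Fox below Ctrl without overlap and an adjusted p of 0.254.

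Other genes of the pathway, taken from a list of 66 entries outside the rule, gave 57 tested. In Fox over Lipo 0 of them passed (1 lower, CTNNB1, with DESeq2 and without a filter on low counts), in Lipo over Ctrl 16 (28.1%, against 19.6% of all genes; 8 higher and 8 lower) and in Fox over Ctrl 3 (5.26%, against 8.52%). Their median log2 fold change was -0.02, 0.08 and 0.05 in the 3 comparisons, in that order. CTNNB1, which encodes β-catenin, averaged 86.3 ± 3.9 CPM in Fox, 103 ± 2.5 in Lipo and 76.7 ± 5.9 in Ctrl libraries (SD, n = 3 each). It was higher in Lipo than in Ctrl (log2 0.43 ± 0.07 SE, adjusted p = 2.59e-05). In Fox over Lipo the log2 fold change was -0.26 ± 0.07 (95% interval -0.40 to -0.12) with an adjusted p of 0.169, the smallest in that list. Without a filter on low counts CTNNB1 passed there (-0.28, adjusted p = 0.0325), as it did with DESeq2 (-0.25, 0.03). Over all settings its log2 fold change in Fox over Lipo ran from -0.36 to -0.21 and its adjusted p from 0.03 to 0.987, the highest being in a leave-one-out fit. DESeq2 gave an adjusted p to only 20 of the 57 genes in Fox over Lipo. Without independent filtering it called 0 of them, as did limma-voom. Higher in Lipo than in Ctrl were also TPBG, a membrane inhibitor of LRP6 signalling (0.44), TNKS2, a tankyrase that marks axin for removal (0.56), CXXC5 (0.52), TBL1XR1 (0.47), CSNK1G1 (0.38), CELSR1 (0.31) and CTBP2 (0.23, all log2 fold changes). Lower were RAC1 (-0.45) and RHOA (-0.23), GTPases of the polarity branch, the destruction-complex partner BTRC (-0.38), RSPO4 (-0.31), the β-catenin co-activators PYGO2 (-0.28) and BCL9 (-0.25), DVL3 (-0.21) and GSK3A (-0.20). In Fox over Ctrl the 3 were TPBG (0.46) and CSNK1G1 (0.39) on the higher side and RAC1 (-0.32) on the lower. In Lipo over Ctrl 4 of the 16 calls held in every leave-one-out fit and every setting: CTNNB1, TPBG, TNKS2 and RAC1. Scaled by library totals alone, the other 7 lower calls were lost: RHOA, DVL3 and GSK3A had positive values (0.02, 0.04 and 0.04), and PYGO2 (-0.04), BCL9 (-0.01), RSPO4 (-0.06) and BTRC (-0.14) values nearer 0. CTBP2 lost its call in 6 of 11 settings and 4 of 6 leave-one-out fits. TBL1XR1 lost its call in 5 of 11 and 4 of 6, with a log2 fold change of 0.22 without Lipo 3. In Fox over Ctrl TPBG alone held throughout. RAC1 missed the threshold with library totals alone (-0.17, adjusted p = 0.0732), and CSNK1G1 missed it in 5 of 6 leave-one-out fits.

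A list of 31 genes known as β-catenin targets in other systems gave 26 tested, of which 0 passed in Fox over Lipo, 7 in Lipo over Ctrl (26.9%, against 19.6% of all genes) and 6 in Fox over Ctrl (23.1%, against 8.52%). VEGFA, an angiogenic factor that many other signals also induce, averaged 103 ± 6.4 CPM in Fox, 110 ± 0.91 in Lipo and 63.3 ± 3.2 in Ctrl libraries (SD, n = 3 each). Its log2 fold change was 0.80 ± 0.07 (SE) in Lipo over Ctrl (adjusted p = 6.42e-10) and 0.70 ± 0.07 in Fox over Ctrl (adjusted p = 2.35e-08). JUN, a stress-responsive factor, had 0.65 and 0.62, SOX9, a progenitor factor, 0.58 and 0.54, MYC, a growth regulator, 0.47 and 0.48, and BIRC5, a gene of dividing cells, 0.27 and 0.24 on the log2 scale in the same comparisons, all past the threshold. VEGFA, JUN, SOX9 and MYC kept their calls in every fit and setting. BIRC5 lost its call in 2 of 6 leave-one-out fits in Lipo over Ctrl, and in 4 of 6 and with RLE factors (adjusted p = 0.0508) in Fox over Ctrl. CCND1 and PPARD were lower in Lipo than in Ctrl (-0.24 and -0.21), with values of 0.01 and 0.03 when scaled by library totals alone. CCND1 also lost its call in 4 of 6 leave-one-out fits. CD44 was higher in Fox than in Ctrl (0.21, adjusted p = 0.045), a call lost in all 6 leave-one-out fits (adjusted p up to 0.271) and 4 of 11 settings. SP5 and ASCL2, targets regarded as close readouts of β-catenin, did not pass. SP5 had a log2 fold change of -0.10 in Fox over Lipo and 0.24 in Lipo over Ctrl (adjusted p = 0.934 and 0.475). ASCL2 had 0.21 and 0.75 (adjusted p = 0.946 and 0.454). The log2 fold changes of VEGFA, JUN, SOX9 and MYC in Fox over Lipo lay between -0.10 and 0.01.

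Precision followed level. In Fox over Lipo, the median SE of a log2 fold change was 0.09 for the 15 genes at 10 CPM or more, 0.21 for the 19 between 1 and 10 CPM and 0.44 for the 11 below 1 CPM. Among the 15 most abundant, the fold changes in Fox over Lipo ran from -0.16 (RYK) to 0.28 (WNT7B), and the 95% intervals reached no lower than -0.40 (TCF7L2) and no higher than 0.56 (WNT7B).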

How the data were processed

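The file the authors deposited holds whole-number read counts for each gene in each of the 9 libraries, per the file headers. Libraries came from a stranded mRNA kit, per the labels' protocols. The submitters' processing notes name bcl2fastq, STAR 2.5.2b, HTSeq and GRCh38, whereas strand setting and annotation release were not given in the sources used here. GENCODE release 29 gave coordinates and exon lengths, and RefSeq (GRCh38.p14) start sequences. The test was the quasi-likelihood F test of edgeR 4.0.16 (R 4.3.3) on all 9 libraries, with a mean per group, filterByExpr at a minimum count of 10, TMM factors and Benjamini-Hochberg adjustment over the 16366 genes tested. Calls were made at an adjusted p below 0.05. The standard error is the fold change over the root of F. The test was checked on simulated data, with known changes put only into genes with an average log2 CPM above 1. Those changes were larger than most calls here. The test was not checked for genes under that log2 level. They include the 11 tested genes below 1 CPM and also APC (mean 1.05 CPM). Whether the triplicates were separate cultures is not stated in detail, and p-values cover the spread between libraries only, which may be technical. Replicate pairs differed by more than sampling noise (chi-square per degree of freedom 9.17 to 25.3). Members and gene lists were chosen with earlier results of these data known. Values in every library are given for members called in any comparison and the 3 most abundant of each role. WNT10B, WNT6, FZD6, ROR1, SFRP2 and AXIN2 were singled out after their values were seen. Alternatives were RLE factors, library totals alone, nuclear genes only, other filters, GC and length offsets, a replicate block, a fit of the compared groups alone, each library left out, DESeq2 1.42.0 and limma-voom (limma 3.58.1).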

Additional observations from a re-analysis of the deposited data

How the results depend on the processing

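In Fox over Lipo, 0 of the 45 genes passed in every setting tried, including each leave-one-out fit. Few of all genes passed there either, from 1 without Fox 2 to 154 higher and 172 lower without Lipo 1. Counts of 0 therefore do not set the 45 apart from other genes. In Fox over Lipo DESeq2 gave an adjusted p to only 1 of the 45 genes, so DESeq2 without independent filtering was added after seeing the data and also called 0. In Lipo over Ctrl, where 7 passed, library totals alone gave 15 and GC and length offsets gave 11, and leaving out a library gave 3 to 10, with 3 without Lipo 2 and also without Lipo 3. Among all genes, the calls there went from 1676 higher and 1533 lower to 5721 and 338 with library totals alone. They were 1868 and 1593 with GC and length offsets, 1110 and 982 without Lipo 2 and 1111 and 1182 without Lipo 3. In Fox over Ctrl, where 4 passed, library totals alone gave 11, limma-voom gave 2, and leaving out a library gave 2 to 4, with 2 without Fox 1, Fox 2 or Ctrl 1. Among all genes, 757 higher and 637 lower became 2320 and 180 with library totals alone and 666 and 604 with limma-voom. They were 577 and 428 without Fox 1, 468 and 459 without Fox 2 and 465 and 418 without Ctrl 1. With the replicate number as a block, 0, 8 and 4 genes passed in Fox over Lipo, Lipo over Ctrl and Fox over Ctrl. Same-numbered libraries showed no shared deviation (correlations of -0.09 to 0.084, against -0.08 to 0.131 for other pairs). These correlations cannot tell whether equal numbers mark samples handled together. No other count of members moved by over 1.5 times. Of the 730 other-setting values of called genes, 5 changed sign, all with library totals alone in Lipo over Ctrl: RHOA (0.015), DVL3 (0.036), GSK3A (0.04), PPARD (0.034) and CCND1 (0.007). That scale shifts all genes upward in Lipo. Of the 2690 values of genes not called, 147 changed sign. Beyond those 5, and over both kinds, 103 values lost a call, 61 gained one and 3251 stayed on their side of the threshold. For the other pathway genes, 0 in Fox over Lipo became 1 lower with DESeq2 and with no filter on low counts, 16 in Lipo over Ctrl became 35 with library totals alone, 6 without Lipo 2 and 8 without Ctrl 1, and 3 in Fox over Ctrl became 16 with library totals alone and 13 with GC and length offsets. Among all genes, calls in Fox over Ctrl with those offsets were 1141 higher and 1077 lower. In Lipo over Ctrl without Ctrl 1 they were 1026 higher and 1114 lower. Errors were widest for the 11 tested genes below 1 CPM, and the cause of the shifts other than the change of scale was not tested.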
